A study of Mus musculus with 6 samples.

Results

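Class I antigen presentation displays peptides from a cell's own proteins to CD8+ T cells. The 10 genes described here encode its processing and loading machinery in the mouse lacrimal gland, the main tear-producing gland of the eye. They were taken by name from the gene table, where all 10 were found among 55401 gene identifiers, and that rule uses no measured value. They comprise 3 catalytic subunits of the immunoproteasome (Psmb8, Psmb9 and Psmb10), its activator subunit Psme1, both chains of the peptide transporter (Tap1 and Tap2), the loading factor Tapbp, the trimming peptidase Erap1, the light chain B2m and the transactivator Nlrc5. RNA had been sequenced from 3 lacrimal gland samples of ICR mice, an outbred stock that served as the control, and from 3 of NOD/Ltj mice, an inbred strain that develops autoimmune inflammation of tear and salivary glands and serves as a mouse model for Sjögren's syndrome. The titles of the NOD/Ltj samples call that group MOD. The labels give no treatment, age or sex for either group. They also leave unsaid whether the 3 samples of a group are different animals, so the p-values may not measure the spread between animals.

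In the standard pathway, proteasomes cut cytosolic proteins into peptides. Interferon-γ induces the subunits encoded by Psmb8, Psmb9 and Psmb10, which replace the constitutive subunits encoded by Psmb5, Psmb6 and Psmb7 in newly built proteasomes and favour peptides that fit class I molecules. The transporter carries peptides into the endoplasmic reticulum, Erap1 trims them there, tapasin (the product of Tapbp) helps load them, and B2m completes the complex with the heavy chain. Nlrc5 switches on many of these genes, and lymphocytes carry much of the machinery at rest while most epithelial cells carry less.

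The libraries held between 58426580 and 76554340 estimated counts, and levels are given as CPM, counts scaled to library size with TMM factors. Transcripts of gland epithelium were present in every library, with a summed level of 1269 to 1451 CPM for 10 markers in ICR and 976 to 1070 CPM in NOD/Ltj. Transcripts of neighbouring tissue differed between libraries. The summed level of 5 salivary gland genes was 582, 1146 and 11725 CPM in ICR 1, 2 and 3 and 44.8, 2043 and 67.4 CPM in NOD/Ltj 1, 2 and 3, and 5 skeletal muscle genes summed to 95.7 CPM in ICR 3 and to between 0.563 and 4.12 CPM in the other libraries. ICR 1 differed from ICR 2 and ICR 3 in several lists. The macrophage markers Adgre1, Csf1r and Cd68 were at 7.70, 19.7 and 11.8 CPM in ICR 1 and lower in the other 5 libraries, while the dendritic cell genes Itgax, Flt3 and Zbtb46 were highest among the controls in ICR 3 and Xcr1 in ICR 2. The 4 adipocyte genes summed to 13.4, 0.630 and 5.56 CPM in ICR 1, 2 and 3 and to between 0 and 5.06 CPM in NOD/Ltj. The epithelial genes Epcam (121, 65.1 and 44.8 CPM in ICR 1, 2 and 3), Cdh1 (85.2, 34.9 and 26.6 CPM) and Krt8 (255, 148 and 119 CPM) and the endothelial gene Tek (19.9, 3.73 and 2.67 CPM) were also highest in ICR 1. So were the epithelial genes Krt18, Aqp5 and Slc12a2. Other markers of both lists went the other way among the controls. The endothelial genes Pecam1, Cdh5, Kdr and Emcn and the epithelial genes Bhlha15 and Pax6 were lowest in ICR 1. Rab3d was highest in ICR 2 and Sox10 in ICR 3. Their part in the values of ICR 1 was not tested. These values are given again where they touch a result.

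A RefSeq promoter window (GRCm38.p6, 250 bases before to 50 after an annotated start) was available for 8 of the 10 genes. Promoter sequence is shown for those whose window held letters known from interferon, NF-κB and class I promoters, because these genes are classic targets of interferon-γ and NF-κB is named in the title of the series. Capitals mark the matches. Positions count from the start as 1, with the base before it as -1. Tap1 and Psmb9 are neighbours that are read in opposite directions, and 275 of the 300 bases of their windows overlap. The 225 bases between both starts, at chr17:34187331-34187555 on the plus strand, and the stretches before or across the starts of the other genes read:
between Tap1 and Psmb9: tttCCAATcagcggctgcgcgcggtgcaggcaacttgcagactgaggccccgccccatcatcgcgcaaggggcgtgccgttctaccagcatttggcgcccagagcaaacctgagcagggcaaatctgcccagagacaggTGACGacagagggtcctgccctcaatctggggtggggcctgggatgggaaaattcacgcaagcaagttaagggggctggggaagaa
B2m (chr2:122147542-122147651, plus strand, positions -145 to -36): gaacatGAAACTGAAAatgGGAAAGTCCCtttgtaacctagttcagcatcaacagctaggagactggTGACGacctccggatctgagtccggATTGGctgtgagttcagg
Psmb8 (chr17:34198085-34198119, plus strand, positions -110 to -76): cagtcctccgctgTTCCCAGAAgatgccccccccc
Erap1 (chr13:74639823-74639858, plus strand, positions -30 to 6): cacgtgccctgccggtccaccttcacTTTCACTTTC
Psme1 (chr14:55578489-55578518, plus strand, positions -5 to 25): gtttcgagctgtgcTTTCGCTTTCccttcc

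The core of the interferon-stimulated response element, GAAA, any 2 bases and GAAA again (TTTC, any 2 bases and TTTC on the other strand), occurred in the windows of B2m, Erap1 and Psme1 (3 of 8), and in 3.44% of all 32851 promoter windows of that length. The gamma-activated site TTCNNNGAA occurred in that of Psmb8 (1 of 8, 8.30% of all windows). The NF-κB consensus was found in that of B2m, next to the interferon element (1 of 8, 4.51%). The CCAAT box (CCAAT or ATTGG), bound by the factor NF-Y, occurred in those of B2m, Tap1, Psmb9 and Tapbp (4 of 8, 37.4%), and the half-site TGACG (or CGTCA) in those of B2m, Tap1 and Psmb9 (3 of 8, 20.8%). Both strands were searched, no match overlapped another, and Tap1 and Psmb9 share 1 copy of each of their sites. B2m has a second TGACG, after its start, and the matches of Tapbp are not shown. A match says only that the letters are present in the reference strain.

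All 10 genes had a higher mean level in NOD/Ltj, and 4 rose at an adjusted p under 0.05 with edgeR's quasi-likelihood test: Nlrc5, Tap1, Psmb9 and B2m. Among 18537 genes tested, 349 were called higher, a background of 1.88%. At an unadjusted p under 0.05, 6 of the 10 were higher, against 8.00% of all genes tested. Each NOD/Ltj library lay above each ICR library for 6 of the 10, the 4 named and Tap2 and Psmb8, where 11.2% of all genes tested did so. The median log2 fold change of the 10 was 1.81, with a range from 0.59 (Erap1) to 3.40 (Nlrc5), and that of all genes tested was -0.029. None was called lower (background 0.361%) by edgeR, DESeq2 or limma-voom, and none was lower at an unadjusted p under 0.05 by any of them. All 10 passed the filter on low counts. Without ICR 3 and NOD/Ltj 2, the libraries with the most salivary transcripts, edgeR called 0 of the 10 (4 at an unadjusted p under 0.05), with 2 libraries left per group and a median log2 fold change of 1.59. Over all genes tested, that fit called 2 higher.

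**Figure D1:**
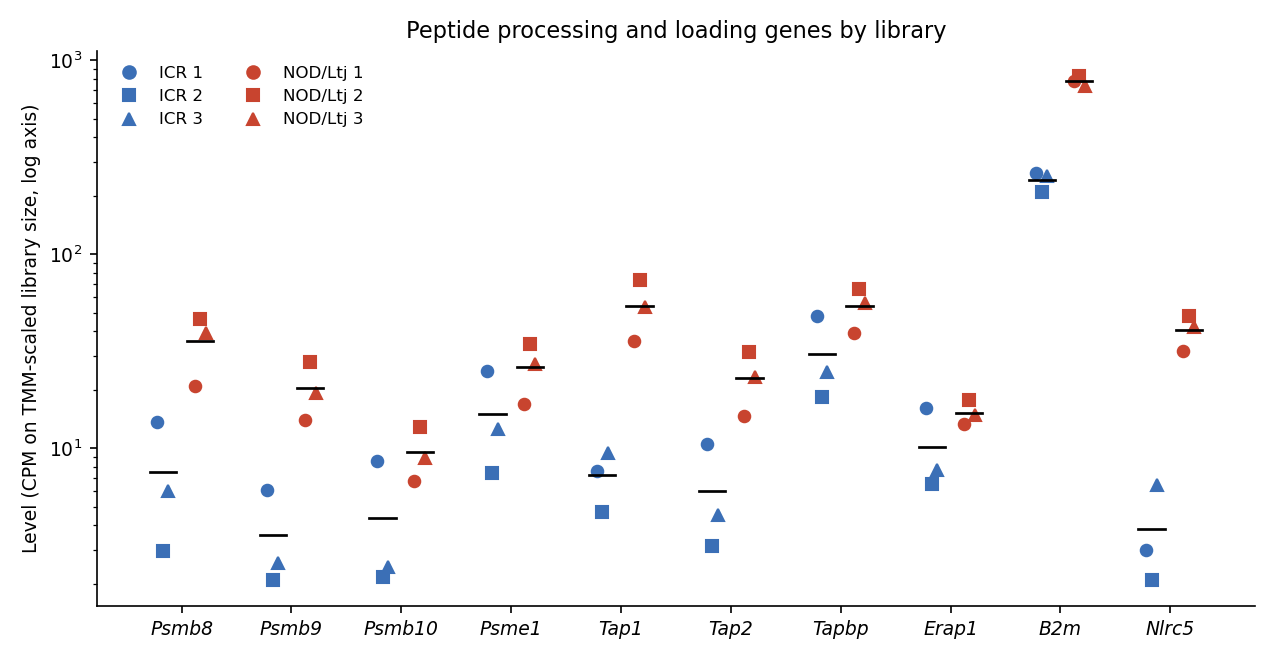
Level of each gene in CPM (log axis) in the 3 ICR libraries (blue) and the 3 NOD/Ltj libraries (red), with the replicate given by the symbol and the group mean by the bar. The groups are separate for Psmb8, Psmb9, Tap1, Tap2, B2m and Nlrc5, and ICR 1 lies among the NOD/Ltj libraries for Psmb10, Psme1, Tapbp and Erap1.

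The catalytic immunoproteasome subunits were measured first along the pathway. Psmb9, also known as LMP2, stood at 6.11, 2.10 and 2.57 CPM in ICR 1, 2 and 3 and at 13.9, 27.96 and 19.2 CPM in NOD/Ltj 1, 2 and 3. It rose 5.66-fold (log2 fold change 2.50 ± 0.46 SE, adjusted p = 0.0405 by edgeR). The lowest NOD/Ltj library lay above the highest ICR library, which was ICR 1. Without ICR 1 the log2 fold change was 3.12 and the call held (adjusted p = 0.0138). Psmb9 was not called by limma-voom (adjusted p = 0.0503), and the edgeR call was lost with any other single library left out (adjusted p from 0.0530 without NOD/Ltj 1 to 0.157 without NOD/Ltj 2).

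Psmb8, known as LMP7, stood at 13.6, 2.97 and 5.996 CPM in ICR and at 20.9, 46.6 and 39.4 CPM in NOD/Ltj. The groups did not overlap, but the control libraries were spread widely, with ICR 1 highest and ICR 2 lowest. The log2 fold change of 2.24 ± 0.56 (SE) did not pass the test (adjusted p = 0.11 by edgeR). Without ICR 1, the highest control, it was 2.99 with adjusted p = 0.0266.

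Psmb10, known as MECL-1, stood at 8.55, 2.16 and 2.45 CPM in ICR and at 6.80, 12.9 and 8.94 CPM in NOD/Ltj. ICR 1 lay above NOD/Ltj 1, so the groups overlapped, and the log2 fold change of 1.12 ± 0.55 (SE) did not pass (adjusted p = 0.464 by edgeR). Without ICR 1 it was 2.04 with adjusted p = 0.0314. Psmb10 is the only catalytic immunosubunit gene outside the major histocompatibility complex region of chromosome 17, on chromosome 8.

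The constitutive counterparts gave other values. Psmb5, which Psmb8 replaces, stood at 13.8, 15.9 and 13.2 CPM in ICR and at 10.2, 11.4 and 11.4 CPM in NOD/Ltj. Psmb6, the counterpart of Psmb9, stood at 32.0, 31.4 and 30.3 CPM and at 36.7, 34.6 and 33.5 CPM. Psmb7, the counterpart of Psmb10, stood at 22.5, 23.1 and 18.9 CPM and at 16.4, 18.8 and 17.7 CPM. The groups of these 3 genes did not overlap, with NOD/Ltj lower for Psmb5 and Psmb7, as was the case for 8.89% of all genes tested, and none passed the test (log2 fold changes -0.37, 0.16 and -0.28, adjusted p between 0.40 and 0.738 by edgeR), none had an unadjusted p under 0.05, and DESeq2 and limma-voom called none.

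The ratio of each immunosubunit to its counterpart within a library does not depend on how libraries were scaled. Psmb8 had 0.986, 0.187 and 0.456 counts per count of Psmb5 in ICR 1, 2 and 3, and 2.05, 4.08 and 3.46 in NOD/Ltj 1, 2 and 3. The mean log2 ratio was 2.81 ± 0.76 (SE) higher in NOD/Ltj, a 7.00-fold difference. For Psmb9 to Psmb6 the ratios were 0.191, 0.0669 and 0.0847 in ICR and 0.380, 0.807 and 0.574 in NOD/Ltj, a difference of 2.45 ± 0.56 (SE) on the log2 scale, or 5.46-fold. For Psmb10 to Psmb7 they were 0.380, 0.0939 and 0.130 in ICR and 0.413, 0.686 and 0.504 in NOD/Ltj, a difference of 1.65 ± 0.65 (SE), or 3.14-fold. In all 3 pairs every NOD/Ltj library lay above every ICR library, with a narrow gap for the last pair (0.380 in ICR 1 against 0.413 in NOD/Ltj 1). Each pair gave p = 0.10 in a two-sided exact permutation test (adjusted over the 3 pairs 0.10), which is the smallest p that 3 against 3 samples allow.

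Scaled by transcript length, Psmb8 made up 35.3, 9.35 and 20.1% of the pair with Psmb5 in ICR and 53.0, 69.2 and 65.6% in NOD/Ltj. The share of Psmb9 in its pair with Psmb6 was 10.1, 3.80 and 4.76% in ICR and 18.3, 32.3 and 25.3% in NOD/Ltj. Psmb10 made up 25.2, 7.67 and 10.3% of the pair with Psmb7 in ICR and 26.8, 37.8 and 30.8% in NOD/Ltj. Psmb8 was thus the larger transcript of its pair in each NOD/Ltj library and in no ICR library, while Psmb6 and Psmb7 stayed the larger transcripts of theirs in all 6. These shares are of RNA and depend on the transcript lengths used, the longest protein-coding transcript of each gene.

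**Figure D2:**
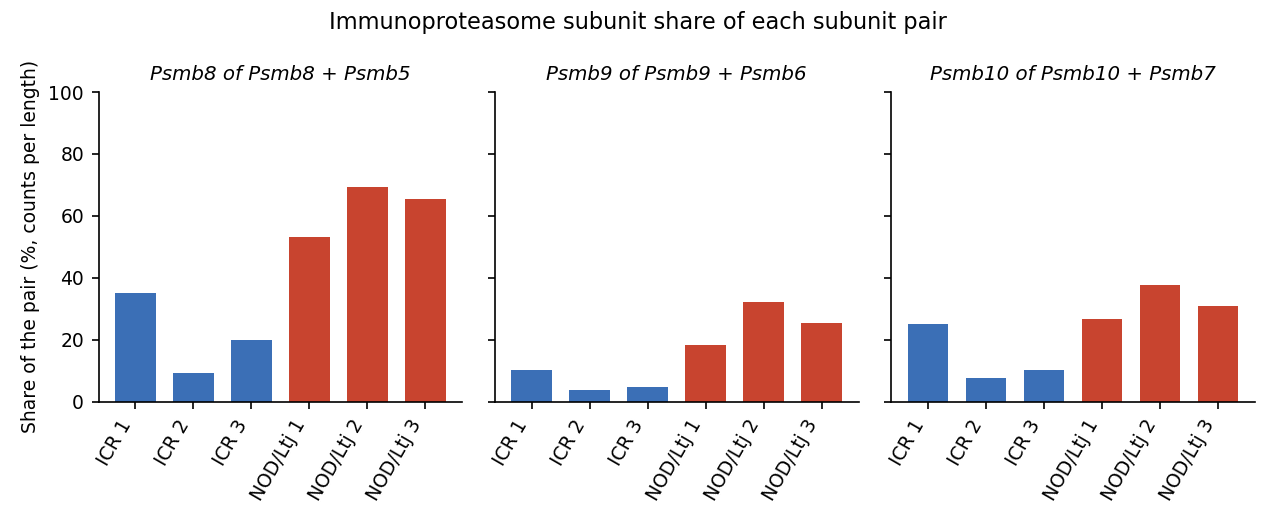
Share of the immunoproteasome subunit in each subunit pair, in percent of the pair's counts per transcript length, with 1 bar per library (ICR blue, NOD/Ltj red). The Psmb8 share runs from 9.35 to 35.3% in ICR and from 53.0 to 69.2% in NOD/Ltj, and the highest ICR bar of each pair is ICR 1.

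Psme1 encodes a subunit of PA28, the ring that opens the proteasome and speeds peptide release. It stood at 25.1, 7.50 and 12.6 CPM in ICR and at 16.9, 34.6 and 27.1 CPM in NOD/Ltj. ICR 1 exceeded NOD/Ltj 1, the groups overlapped, and the log2 fold change of 0.80 ± 0.45 (SE) did not pass (adjusted p = 0.532 by edgeR, and 0.106 without ICR 1). Psme2, the partner subunit of that ring, had a nearly equal log2 fold change (0.83 ± 0.49 SE, adjusted p = 0.558) and the same high ICR 1 (18.6, 4.98 and 6.99 CPM in ICR). It is named here after its values were seen.

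Of the other proteasome genes, 0 of 11 further core subunits, 0 of 18 subunits of the regulatory cap and 0 of 8 activator and assembly genes (Psme2 included) were called by edgeR, DESeq2 or limma-voom, and 0 had an unadjusted p under 0.05 by any of the 3. Median log2 fold changes were -0.15, -0.11 and 0.12. Psma7, a core subunit gene, stood at 56.6 ± 0.316 CPM in the ICR libraries and 53.9 ± 2.34 CPM in those of NOD/Ltj (SD, n = 3 each). Psmd2, a scaffold of the cap, stood at 43.2 ± 10.2 and 37.8 ± 2.32 CPM (SD, n = 3 each), and Psme4, another activator, at 47.1 ± 8.99 and 59.2 ± 7.87 CPM (SD, n = 3 each). The immunosubunit genes thus had log2 fold changes of 1.12 to 2.50, and the 11 core subunits that have no interferon-induced form had values from -0.33 to 0.09.

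Tap1 and Tap2 form the transporter as 2 chains in equal number. Tap1 stood at 7.67, 4.72 and 9.40 CPM in ICR and at 35.7, 73.8 and 53.6 CPM in NOD/Ltj, with a wide gap between the groups. It rose 7.48-fold (log2 fold change 2.90 ± 0.36 SE, adjusted p = 0.0116 by edgeR). The call held in 5 of the 6 fits with 1 library left out and ended without NOD/Ltj 3 (adjusted p = 0.0715).

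Tap2 stood at 10.5, 3.12 and 4.54 CPM in ICR and at 14.7, 31.3 and 23.2 CPM in NOD/Ltj. The groups did not overlap, and the log2 fold change of 1.93 ± 0.48 (SE) did not pass (adjusted p = 0.111 by edgeR). Without ICR 1 it was 2.58 with adjusted p = 0.0232. The counts of Tap1 per count of Tap2, a ratio looked at after the values were seen, were 0.732, 1.51 and 2.07 in ICR and 2.42, 2.35 and 2.31 in NOD/Ltj. The NOD/Ltj libraries thus lay within a narrow range (SD 0.0569, n = 3) and the ICR libraries did not (SD 0.672, n = 3), with ICR 1 lowest.

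Tapbp encodes tapasin, which holds empty class I molecules at the transporter. It stood at 48.2, 18.5 and 24.9 CPM in ICR and at 39.2, 66.3 and 56.4 CPM in NOD/Ltj. ICR 1 again exceeded NOD/Ltj 1, and the log2 fold change of 0.82 ± 0.38 (SE) did not pass (adjusted p = 0.418 by edgeR, 0.0627 without ICR 1). Erap1, which trims peptides to the length that class I molecules hold, stood at 16.2, 6.53 and 7.69 CPM in ICR and at 13.3, 17.7 and 14.8 CPM in NOD/Ltj. It had the smallest log2 fold change of the 10 (0.59 ± 0.35 SE, adjusted p = 0.556 by edgeR), which was 1.09 with adjusted p = 0.0446 without ICR 1.

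Further chaperones and peptidases gave no calls. Of 7 chaperones listed for class I folding, 0 were called by edgeR, DESeq2 or limma-voom and 0 had an unadjusted p under 0.05 by any of them. Their log2 fold changes ran from -0.19 to 0.63 by edgeR. Calr, a lectin chaperone of the loading complex, stood at 639 ± 211 CPM in the ICR libraries and 635 ± 113 CPM in those of NOD/Ltj (SD, n = 3 each). Pdia3, the disulfide isomerase bound to tapasin, stood at 279 ± 44.1 and 270 ± 57.6 CPM, and Hspa5 at 511 ± 143 and 521 ± 94.3 CPM (SD, n = 3 each). Of 7 cytosolic and endosomal peptidases, 0 were called by the 3 tools, and 1 was lower at an unadjusted p under 0.05 by each of them. With edgeR that was Thop1 (log2 fold change -0.50, adjusted p = 0.361), named after its values were seen. Of the 7, 3 had a positive log2 fold change. Lap3, an interferon-inducible leucine aminopeptidase, stood at 38.2 ± 6.41 and 26.1 ± 10.4 CPM (SD, n = 3 each, log2 fold change -0.55, adjusted p = 0.558 by edgeR). Only NOD/Ltj 1 was below the ICR libraries, with 14.1, 32.7 and 31.6 CPM in NOD/Ltj 1, 2 and 3. The ICR libraries were at 39.1, 31.4 and 44.1 CPM.

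B2m stood at 263, 209 and 254 CPM in ICR and at 785, 830 and 739 CPM in NOD/Ltj, and the libraries of each group lay close together. The log2 fold change was 1.70 ± 0.24 (SE), or 3.24-fold (adjusted p = 0.016 by edgeR). It moved little with any library left out (1.60 to 1.75), while the call was kept without ICR 1 or NOD/Ltj 1 and lost without ICR 2, ICR 3, NOD/Ltj 2 or NOD/Ltj 3 (adjusted p from 0.0592 to 0.101). Per kilobase of transcript, the scale on which levels of the 10 genes are compared, B2m was highest, at 281 ± 33.5 CPM per kilobase in the ICR libraries and 912 ± 52.3 in those of NOD/Ltj (SD, n = 3 each). The next highest in NOD/Ltj were Psme1 (23.6 ± 7.97) and Psmb8 (21.9 ± 8.14 CPM per kilobase, SD, n = 3 each), whose values overlapped, and the lowest was Erap1 (2.71 ± 0.397). In ICR the lowest was Nlrc5 (0.506 ± 0.304 CPM per kilobase, SD, n = 3).

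The heavy chains that pair with B2m belong to a family with near-identical members that differ between strains, so their values are uncertain. Of 8 heavy chain genes, 4 were called higher (H2-Q7, H2-Q6, H2-M3 and H2-Q4, log2 fold changes 4.28, 3.86, 2.29 and 2.53) and 0 lower. The classical genes H2-K1 (1.55 ± 0.49, adjusted p = 0.216) and H2-D1 (0.86 ± 0.42, SE, adjusted p = 0.455 by edgeR) did not pass, and H2-T22 had a negative value of -0.94 (adjusted p = 0.571). Every NOD/Ltj library lay above every ICR library for 6 of the 8, H2-K1 and H2-D1 included, as for 11.2% of all genes tested. DESeq2 called 5 of the 8 higher and limma-voom 3. B2m counts per count of H2-K1 and H2-D1 together were 0.547, 1.5001 and 0.785 in ICR and 1.4991, 1.04 and 1.07 in NOD/Ltj, and these groups overlapped. That ratio was looked at after the values were seen.

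Nlrc5 encodes the transactivator that binds class I promoters together with RFX and NF-Y factors. It stood at 2.98, 2.08 and 6.45 CPM in ICR and at 31.8, 47.8 and 42.0 CPM in NOD/Ltj. This was the largest change of the 10, 10.6-fold (log2 fold change 3.40 ± 0.44 SE, adjusted p = 0.013 by edgeR), and the highest control was ICR 3 and not ICR 1. Without ICR 3 the log2 fold change was 3.9997, and without ICR 2 it was 3.11. The call held in 4 of the 6 fits with 1 library left out and ended without NOD/Ltj 2 (adjusted p = 0.0634) or NOD/Ltj 3 (0.0751).

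Regulators upstream of the pathway are given for 4 genes of a list of 18. Of the 18, 15 had a positive log2 fold change, with a median of 0.71. At an unadjusted p under 0.05 by edgeR, 9 of the 18 were higher, against 8.00% of all genes tested. The kinase Jak1 (0.54 ± 0.22, adjusted p = 0.363), the factor Irf1 (0.87 ± 0.36, adjusted p = 0.369) and Irf9 (0.77 ± 0.39, log2, SE, adjusted p = 0.487 by edgeR) did not pass. Every NOD/Ltj library lay above every ICR library for Jak1 and Irf9, as for 11.2% of all genes tested, and the groups overlapped for Irf1. Ifng itself, named after its values were seen, stood at 0.231, 0 and 0 CPM in ICR and 0.278, 0.710 and 0.591 CPM in NOD/Ltj (adjusted p = 0.479 by edgeR). If a fragment adds about 4 counts, a library at 0 allows up to 12 counts, a limit that covers counting error only.

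**Figure D3:**
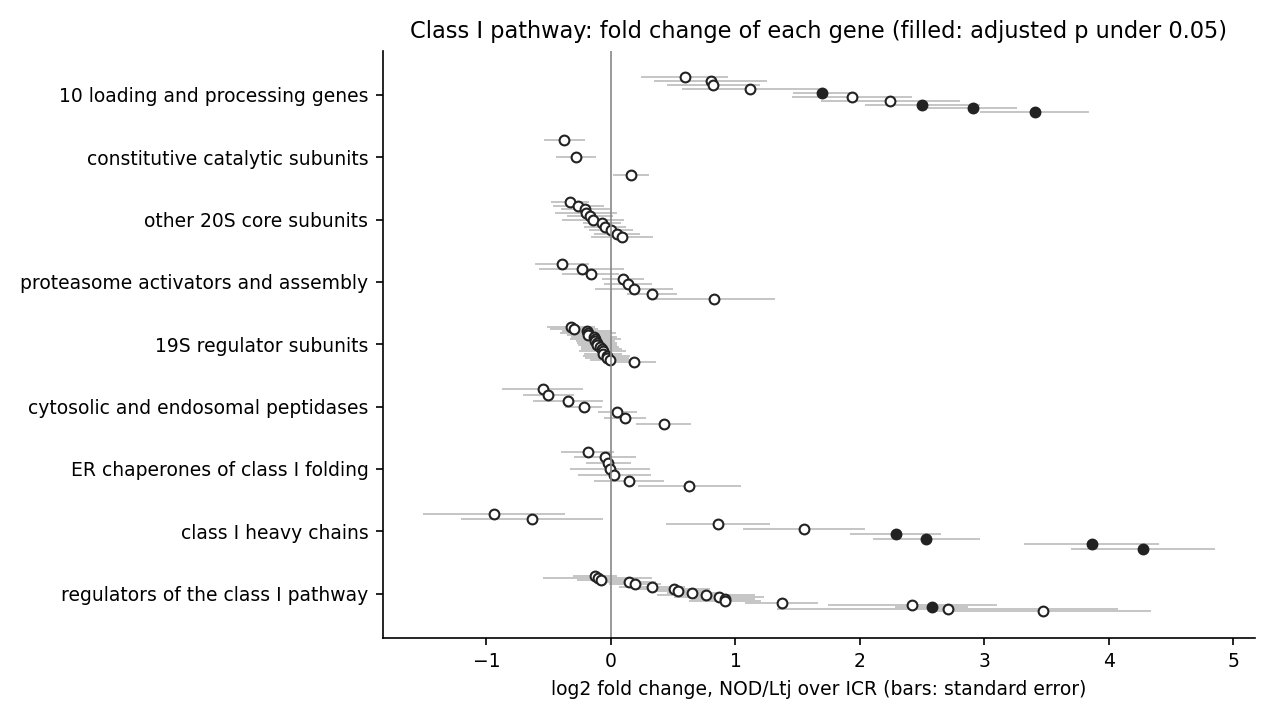
Log2 fold change (NOD/Ltj over ICR, bars show the standard error) of every tested gene of the 10 loading and processing genes and of 8 other lists of the class I pathway. The lists of general proteasome subunits, of peptidases and of chaperones lie around 0, and filled points have an adjusted p under 0.05, among them 4 of the 10 genes and 4 heavy chains.

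The 10 genes fell into 2 patterns among the control libraries, described after the values were seen. ICR 1 was between 2.23 and 3.71 times the mean of ICR 2 and ICR 3 for Tapbp, Erap1, Psme1, Psmb9, Tap2, Psmb8 and Psmb10. For B2m (1.14), Tap1 (1.09) and Nlrc5 (0.697) it was not. In NOD/Ltj the order of the libraries was the same for 9 of the 10, with library 2 highest and library 1 lowest, and NOD/Ltj 2 was between 1.33 (Erap1) and 2.23 (Psmb8) times NOD/Ltj 1. B2m was the exception, with NOD/Ltj 2 at 1.06 times NOD/Ltj 1 and library 3 lowest. Without ICR 1, 8 of the 10 genes were called higher, all but Tapbp and Psme1. Without NOD/Ltj 3 edgeR called 0 of the 10, although 6 had an unadjusted p under 0.05. Over all genes tested, 406 were called higher without ICR 1 and 11 without NOD/Ltj 3. In the absence of ICR 2, ICR 3, NOD/Ltj 1 and NOD/Ltj 2 in turn, 2, 2, 3 and 1 of the 10 were called. The same fits called 112, 120, 405 and 63 genes higher over all genes tested.

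**Figure D4:**
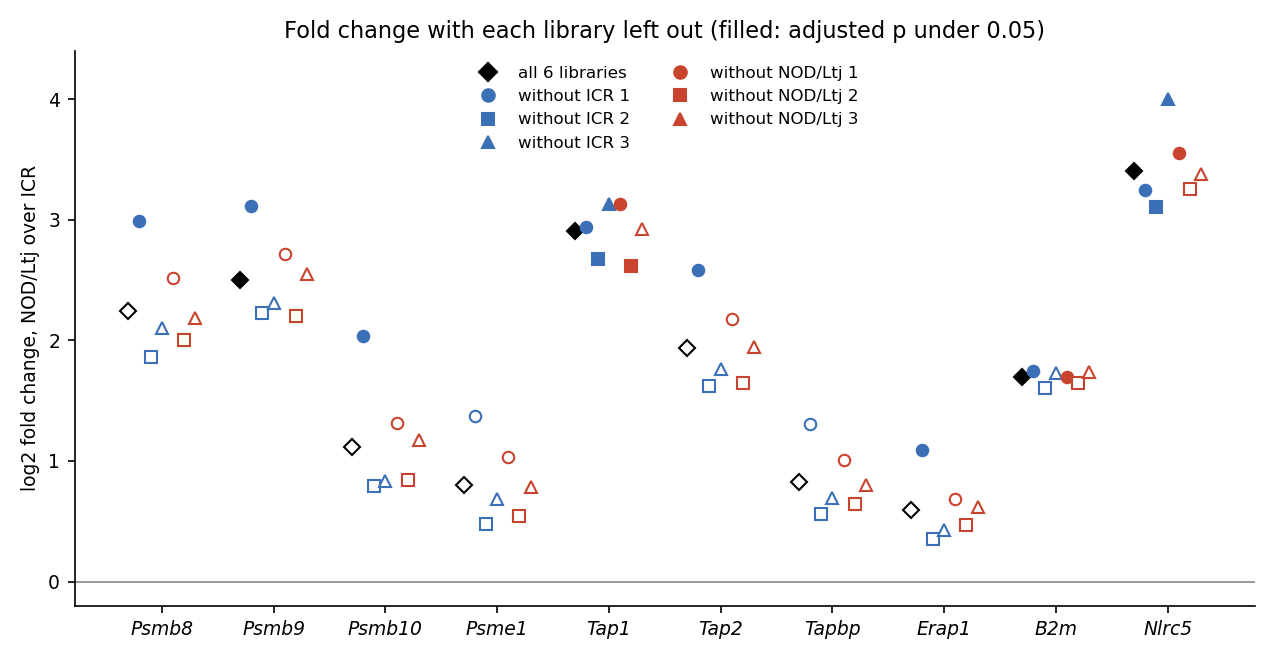
Log2 fold change (NOD/Ltj over ICR) of each gene with all 6 libraries (black) and with 1 library left out, filled where the adjusted p was under 0.05. Every value lies above 0, and leaving out ICR 1 gives the highest value for Psmb8, Psmb9, Psmb10, Psme1, Tap2, Tapbp and Erap1. It does so narrowly for B2m (1.75, against 1.74 without NOD/Ltj 3).

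The 5 genes of chromosome 17, which lie in or beside the major histocompatibility complex (Tap1, Tap2, Psmb8, Psmb9 and Tapbp), had a median log2 fold change of 2.24, and 2 were called. The 5 elsewhere (B2m, Psmb10, Psme1, Erap1 and Nlrc5) had a median of 1.12, and 2 were called. The ranges overlapped, from 0.82 to 2.90 and from 0.59 to 3.40. Provisional gene names aside, 9362 other genes averaged 5 CPM or more in ICR or in NOD/Ltj. Those whose profile over the 6 libraries lay nearest to the average of the 10 were Hhex, Irgm2, Trpv2, Nckap1l and Pik3r5. Their root mean square distances from it were 0.106, 0.117, 0.130, 0.145 and 0.149 log2 units, on a scale of log2 CPM with 0.5 added. They were chosen for this pattern, so no test of them is given.

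General leukocyte, T cell and B cell markers were higher in NOD/Ltj, and plasma cell and macrophage markers were not called. In ICR 1, 7 of the 10 genes were at least 2.23 times the mean of the other controls. Among the controls the summed T cell and B cell markers were lowest in ICR 1 (2.31 and 2.61 CPM). Cd3e, Cd8a and Blk of these lists went the other way and were highest in ICR 1. Cd3e stood at 0.477, 0.226 and 0.315 CPM in ICR 1, 2 and 3, Cd8a at 0.997, 0.404 and 0.420 CPM. Blk stood at 1.08, 0.711 and 0.472 CPM. The sums for general leukocyte, macrophage and dendritic cell, and natural killer markers were highest in ICR 1 (48.4, 44.0 and 1.11 CPM). Single markers differed. Ptprc was highest in ICR 3, and Cd52 was lowest in ICR 1. Of the natural killer markers, Gzma was highest in ICR 1, Nkg7 in ICR 2, and Ncr1 and Klrb1c in ICR 3. The natural killer sums were close, at 1.11, 1.00 and 0.804 CPM in ICR 1, 2 and 3. The dendritic cell genes were highest in ICR 2 or ICR 3, as given above. The sum for plasma cell markers was highest in ICR 2. In whole gland RNA, more cells of a type and more RNA per cell cannot be told apart. Of 6 general leukocyte markers 3 were called higher, with summed levels of 25.5 to 48.4 CPM in ICR and 137 to 338 CPM in NOD/Ltj. Of 8 T cell markers 5 were called by edgeR, 8 by DESeq2 and 0 by limma-voom, although all 8 had an unadjusted p under 0.05 by each tool (2.31 to 3.58 and 31.4 to 87.7 CPM). Of 6 B cell markers 5 were called by edgeR, 6 by DESeq2 and 2 by limma-voom (2.61 to 5.01 and 86.1 to 351 CPM). Of 7 macrophage and dendritic cell markers 0 were called by edgeR (3 at an unadjusted p under 0.05, 2 called by DESeq2 and 0 by limma-voom), with 13.9 to 44.0 CPM in ICR and 30.6 to 53.1 CPM in NOD/Ltj. The log2 fold changes of the macrophage markers Adgre1, Csf1r and Cd68 were -0.12, 0.12 and 0.40. Those of the dendritic cell genes Itgax, Flt3, Zbtb46 and Xcr1 were 2.05, 2.07, 0.92 and 1.04. For Itgax, Flt3 and Zbtb46 every NOD/Ltj library lay above every ICR library, as for 11.2% of all genes tested, and these were the 3 with an unadjusted p under 0.05 by edgeR. Of 4 natural killer markers 0 were called by edgeR (2 at an unadjusted p under 0.05, 2 by DESeq2 and 0 by limma-voom), with sums of 0.804 to 1.11 and 3.22 to 7.79 CPM. Of 4 plasma cell markers 0 were called by edgeR, DESeq2 or limma-voom (0, 0 and 1 at an unadjusted p under 0.05), with sums of 115 to 521 and 412 to 534 CPM. No marker of these lists was at 0 in all 3 ICR libraries. The part of these cells in the results was not tested.

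Set beside Ptprc, which encodes the leukocyte antigen CD45 and stood at 9.75, 7.01 and 13.7 CPM in ICR and 53.8, 120 and 88.3 CPM in NOD/Ltj, the genes differed among themselves. These ratios were looked at after the values were seen. Tap1 had 0.787, 0.673 and 0.689 counts per count of Ptprc in ICR and 0.664, 0.612 and 0.608 in NOD/Ltj, so that every NOD/Ltj library lay below every ICR library, by a small margin. Psmb8 had 1.40, 0.424 and 0.439 in ICR and 0.389, 0.387 and 0.447 in NOD/Ltj, so that 5 libraries lay close together and ICR 1 was high. Nlrc5 had 0.305, 0.297 and 0.472 in ICR and 0.591, 0.397 and 0.476 in NOD/Ltj, with overlapping groups. B2m had 27.0, 29.8 and 18.6 counts per count of Ptprc in ICR and 14.6, 6.89 and 8.38 in NOD/Ltj, and the NOD/Ltj libraries again lay below all ICR libraries, by a wider margin.

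**Figure D5:**
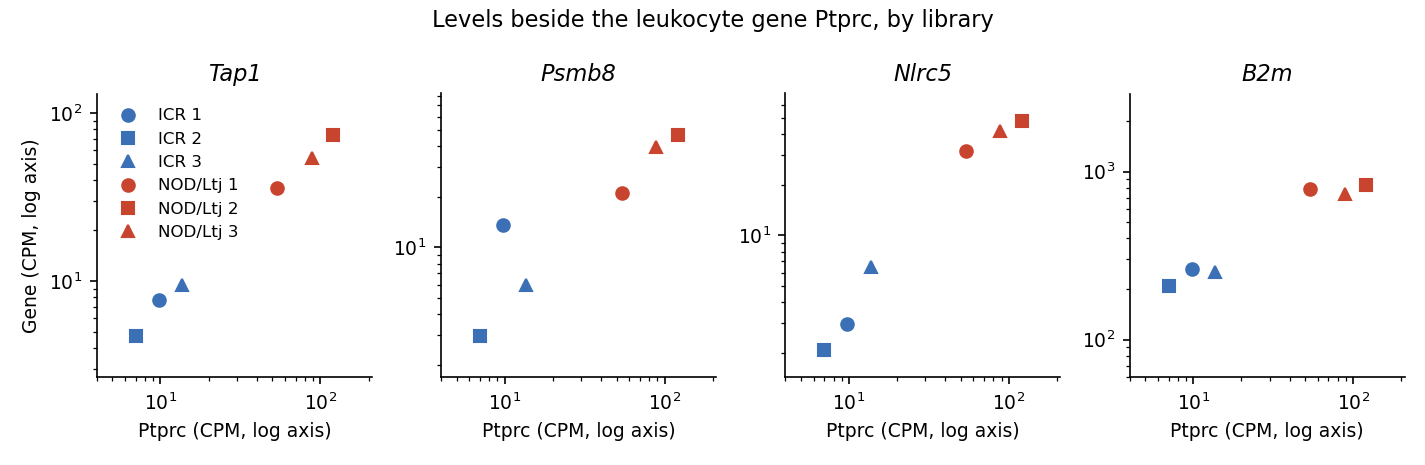
Level of Tap1, Psmb8, Nlrc5 and B2m against that of Ptprc in each library (CPM, log axes of equal span for the 4 genes). Tap1 spans nearly the range of Ptprc, with 0.608 to 0.787 counts per count of Ptprc, ICR 1 stands above the other ICR libraries for Psmb8, and B2m spans a narrower range than Ptprc.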

How the data were processed

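Polyadenylated RNA was sequenced as paired-end libraries by a dUTP method that keeps strand, 3 per strain, per the labels' protocols. The authors deposited estimated counts per gene as unscaled whole numbers. Per the submitters' processing notes, fastp, StringTie and edgeR were used. Aligner, build and strand setting: not given in the sources used here. Of counts from 1 to 40, between 30.35 and 31.66% were multiples of 4, so 1 fragment may have added about 4 counts. The planned test of plain counts was kept, since nothing needed rounding. Symbols came from GENCODE mouse release M21 (55141 of 55401 identifiers matched), and transcript lengths from its basic annotation. Genes without a symbol held under 0.0106% of any library's counts. No 2 libraries agreed within sampling noise.

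NOD/Ltj was compared with ICR by edgeR 4.0.16 in R 4.3.3 (quasi-likelihood, TMM, filterByExpr, no block), two-sided, with Benjamini-Hochberg adjustment over 18537 genes and a threshold of 0.05. The standard error was the absolute log2 fold change over the root of F. DESeq2 1.42.0 and limma-voom (limma 3.58.1) were run beside it. The edgeR step was tested on simulated data with less spread between libraries than these data have. The outcome of that test does not carry over to these data. Ratios within libraries were compared by exact permutation. The members, the lists and the comparisons were chosen with earlier results of these data known. All 10 members and the 3 counterparts are named. Of each other list up to 4 called genes and the 3 most abundant not called were eligible, as were the 5 genes (provisional Gm and Rik names left out) with the nearest profile. The result of 1 listed gene is not reported here.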

Additional observations from a re-analysis of the deposited data

How the results depend on the processing

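All 10 genes kept a positive log2 fold change in all 15 alternatives, and no alternative called any of them lower. Those called higher numbered 4 with upper-quartile factors, with scaling without the 20 most abundant genes, with either filter and with counts divided by 4, 6 by DESeq2 (Tap2 and Psmb8 in addition) and 3 by limma-voom (Psmb9 at 0.0503). With 1 library left out they ranged from 0 to 8. Without ICR 3 and NOD/Ltj 2, the libraries with the most salivary transcripts of their groups and a choice made after seeing the data, edgeR called 0 of the 10 (4 at an unadjusted p under 0.05), with 2 genes higher and 0 lower in the whole table. That fit has 2 libraries per group. Over all genes 349 were higher and 67 lower. DESeq2 gave 898 and 285, limma-voom 123 and 20, and fits with 1 library left out 11 to 406 and 2 to 118.

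The correlations of same-numbered deviations were -0.12, -0.15 and 0.072. With 3 libraries per group, they cannot decide whether replicate numbers pair the samples. With the replicate number as a block, 1 of the 10 was called (Nlrc5), and 129 higher and 25 lower genes in all. The log2 ratios of Psmb8 to Psmb5, Psmb9 to Psmb6 and Psmb10 to Psmb7 were the same with the block by construction (2.81, 2.45 and 1.65, p = 0.25 in an exact sign-flip test, its smallest). They ranged from 2.19 to 3.39, from 2.14 to 2.90 and from 1.24 to 2.24 with 1 library left out, where 2 against 3 samples allow no p under 0.10. With 4 counts added they were 2.79, 2.42 and 1.63. A fit that leaves a group with 2 libraries takes its spread from the other group as well.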
